A study of Mus musculus with 12 samples.

Results

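Collagens of the tumour stroma and of the basement membrane were examined in oral tumours of the mouse, as 42 genes of 23102 measured. They were taken by name: every symbol of the form Col, number, a, number, with Col7a1 and Col17a1 left out. Only probesets that the platform table gives to 1 symbol were used. The list itself was chosen with earlier results of these data known. Of the 42 genes, 11 code for fibrillar chains, 6 for basement membrane chains (Col4), 9 for FACIT chains, which sit on the surface of fibrils, and 6 for beaded filament chains (Col6). A further 3 code for short-chain network collagens, 2 for multiplexins, 3 for transmembrane collagens and 2 for chains outside these classes.

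Total RNA of 12 oral tumours was hybridised to Affymetrix exon arrays (Mouse Gene ST 2.0), 1 array a tumour. All tumours grew in C57BL/6 x FVB F1 mice that received tamoxifen by intraperitoneal injection. The 6 tumours of the KR group expressed RAS, and the 6 tumours of the KHR group expressed RAS together with iHPV, for which a label also names HPV E6, a protein of the human papillomavirus. The sources used here do not give the meaning of the letters, the promoter or Cre that drives the transgenes, or the animals' sex, age and litter. No label states that each tumour is from its own animal, and the p-values therefore cover only the spread among these 12 samples, which may be technical.

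A collagen molecule is a triple helix of 3 chains that may be copies of 1 chain or products of different genes. Type I collagen joins chains of Col1a1 and Col1a2, and makes the fibrils of most connective tissue with type III (Col3a1) and type V (Col5a1, Col5a2), mostly from fibroblasts. Type IV collagen forms the sheet under epithelia and around vessels, and type VI forms beaded filaments between fibrils and cells. The question here was which of these genes differed between RAS tumours with and without the viral transgene, and whether they followed the fibroblast content of the tumours.

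Array values are log2 intensities, so a difference of 1 is a doubling. Each gene was given the median over its probesets, tumour by tumour, and a change is KHR minus KR. A gene was called where limma gave a p under 0.05 after Benjamini-Hochberg adjustment over the 23102 genes. Array medians lay between 5.62 and 5.75, and correlations between arrays lay between 0.935 and 0.970. Since probes differ in their response, levels of different genes do not rank their amounts of RNA. Dim and bright refer to array intensity only, and gaps between genes inside a tumour were compared only between tumours. In bulk tissue, fewer cells of a type and less RNA per cell cannot be told apart. Xist RNA, which coats the inactive X of female cells, was high in 2 of 6 KR tumours (KR 4 and KR 6) and in 4 of 6 KHR tumours (KHR 3, KHR 4, KHR 5 and KHR 6), so the sex of the animals was uneven between groups.

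Promoter windows are shown for 3 genes of the fibrils on which the results turn, the only called gene and 2 fibrillar genes that varied with it. Each is the 250 bases before the RefSeq start on the + strand of GRCm38.p6. Capitals mark the letters TATAAA (the core of a TATA box), CCAAT and GGGCGG (a core of GC boxes), on either strand, with no overlap between them.
Col1a2, chr6:4505368-4505617: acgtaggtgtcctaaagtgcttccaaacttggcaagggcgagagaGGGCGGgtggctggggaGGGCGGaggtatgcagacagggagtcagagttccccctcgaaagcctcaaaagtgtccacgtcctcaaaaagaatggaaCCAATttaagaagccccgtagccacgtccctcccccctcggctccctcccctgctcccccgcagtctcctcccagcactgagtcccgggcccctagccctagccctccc
Col3a1, chr1:45311288-45311537: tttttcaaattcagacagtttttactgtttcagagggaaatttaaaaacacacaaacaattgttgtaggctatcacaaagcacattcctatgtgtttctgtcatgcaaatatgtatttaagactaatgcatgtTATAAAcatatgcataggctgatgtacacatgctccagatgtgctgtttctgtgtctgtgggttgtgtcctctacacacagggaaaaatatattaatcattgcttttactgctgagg
Col5a1, chr2:27886175-27886424: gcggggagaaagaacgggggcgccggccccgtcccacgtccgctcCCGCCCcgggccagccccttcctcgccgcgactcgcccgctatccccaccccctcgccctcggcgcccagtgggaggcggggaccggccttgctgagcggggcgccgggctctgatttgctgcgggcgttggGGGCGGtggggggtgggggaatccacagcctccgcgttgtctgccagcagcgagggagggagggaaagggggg
The Col1a2 window holds 1 CCAAT and 2 GGGCGG, the Col3a1 window 1 TATAAA, and the Col5a1 window 2 GGGCGG. Promoter windows were given for 33 of the 42 collagen genes, 36 windows in all. GGGCGG was in 21 of the 36 (58.3%), against 32.7% of the 32851 windows of all genes. CCAAT was in 11 (30.6%, against 33.8% of all windows) and TATAAA in 4 (11.1%, against 12.4%). A match is a run of letters, not a known binding site.

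Col1a2, which codes for the alpha 2 chain of type I collagen, was lower in KHR tumours and was the only collagen gene called. Of 42 collagen genes, 1 was called lower (2.38%) and 0 higher, beside 1.03% of all genes called lower, 2.71% called higher and 3.74% called in either direction. At an unadjusted p under 0.05, 6 collagen genes were lower (14.3%, against 6.21% of all genes) and 2 were higher (4.76%, against 9.64%). By sign alone 27 of 42 were lower (64.3%, against 49.0% of all genes), with a median change of -0.04 beside 0.00 over all genes. Among the 19 collagen genes above the median level of all genes (4.98) the median change was -0.19, and 13 were lower (68.4%). Genes above that level had a median change of 0.05, and 42.2% of them were lower. These counts describe the list and are not a test of it.

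**Figure D1:**
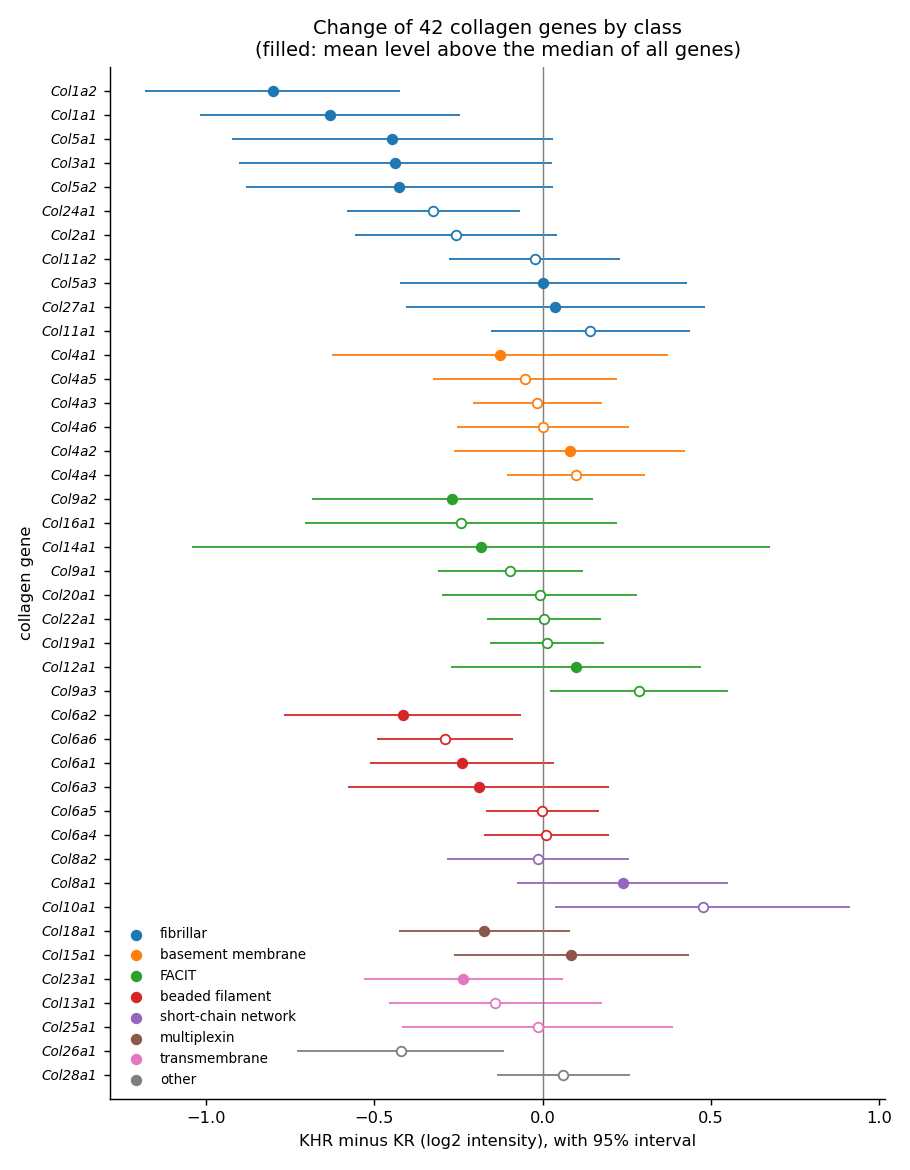
Change of each of the 42 collagen genes (vertical axis, by class) as KHR minus KR in log2 intensity (horizontal axis), with n = 6 tumours a group. Points are the difference of means and lines its 95% interval; filled points have a mean level above the median of all genes. Col1a2 is farthest to the left at -0.80, and 5 fibrillar genes lie at or below -0.43, while the 6 basement membrane genes lie between -0.13 and 0.10.

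Col1a2 was measured at 10.58, 9.68, 10.69, 9.93, 10.05 and 10.21 in KR tumours 1 to 6, and at 9.77, 9.24, 9.51, 9.10, 9.59 and 9.13 in KHR tumours 1 to 6. Of the KHR tumours, 5 lay below every KR tumour, and KHR 1 lay above KR 2 alone. The mean fell by 0.80 ± 0.18 (SE) on the log2 scale, from 10.19 ± 0.39 to 9.39 ± 0.27 (SD, n = 6 each), a 1.74-fold lower intensity (limma, adjusted p = 0.022). The call was lost without KHR 4 (-0.74, limma adjusted p = 0.0578) or without KHR 6 (-0.75, adjusted p = 0.0526). It was also lost with the Xist level as a covariate (-0.75, limma adjusted p = 0.0581). Among the tumours high in Xist the difference was -0.74 (2 KR against 4 KHR tumours), and among those low in Xist -0.75 (4 against 2), splits that were chosen after the values were seen and carry no test.

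Col1a1, the alpha 1 chain of the same molecule, was measured at 11.96, 11.29, 11.59, 10.98, 11.10 and 11.59 in KR tumours and at 11.05, 11.22, 10.93, 10.49, 10.48 and 10.54 in KHR tumours. KHR 4, KHR 5 and KHR 6 were the lowest 3 of the 12 tumours, and the groups overlapped between 10.98 and 11.22. The difference of -0.63 ± 0.18 (95% interval -1.02 to -0.24) did not pass (limma, adjusted p = 0.0743). It passed without KR 4 (-0.72, limma adjusted p = 0.0458) and without KHR 2 (-0.72, limma adjusted p = 0.0462). It also passed with the replicate number as a block (limma adjusted p = 0.0309), although the numbers did not pair the tumours. Among the tumours high in Xist Col1a1 differed by -0.67, and among those low in Xist by -0.35.

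Col3a1, the single chain of type III collagen, ran from 9.10 over a median of 9.38 to 9.996 in KR tumours and from 8.44 over 9.15 to 9.72 in KHR tumours. KHR 4 and KHR 6 were lower than all other tumours, and KHR 5 was among the highest 3, so the groups overlapped widely. Its difference was -0.44 ± 0.22 (limma, adjusted p = 0.352). The type V chains, which nucleate fibrils, had like differences of -0.45 ± 0.22 for Col5a1 (limma, adjusted p = 0.355) and -0.43 ± 0.21 for Col5a2 (limma, adjusted p = 0.356). Col5a1 ran from 7.08 over 7.63 to 8.22 in KR tumours and from 6.60 over 7.38 to 7.83 in KHR tumours, with KHR 4 lowest. Col5a2 was lowest in KHR 4 too (6.54) and highest in KR 3 (8.01) and KHR 5 (7.94). Col5a3, a further chain of type V, had a difference of 0.00 (95% interval -0.43 to 0.43).

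The other fibrillar genes were dim, with mean levels of 5.02 or less in both groups, near or below the median level of 4.98. Col24a1, a minor fibrillar chain, ran from 4.13 over 4.37 to 4.73 in KR tumours and from 3.81 over 4.13 to 4.26 in KHR tumours (-0.32 ± 0.12, limma, adjusted p = 0.179). Its groups overlapped, and KHR 4 and KHR 6 were again the lowest. The cartilage chains were at 4.37 ± 0.22 and 4.11 ± 0.28 for Col2a1, at 4.35 ± 0.24 and 4.49 ± 0.26 for Col11a1, and at 3.88 ± 0.21 and 3.86 ± 0.20 for Col11a2 (SD, n = 6, KR first). Of 12 cartilage and bone markers, 10 were likewise dimmer than that level, and Acan, the cartilage proteoglycan, stood at 3.91 and 3.89. Col27a1 differed by 0.04 (95% interval -0.41 to 0.48). Over the 11 fibrillar genes 8 were lower by sign (72.7%, against 49.0% of all genes). Col1a2 was the 1 called lower (9.09%, against 1.03% of all genes), and 1 gene is not read as a result about the class. The median change was -0.32, which ranged from -0.38 to -0.11 over the other summaries, scalings and covariates tried.

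**Figure D2:**
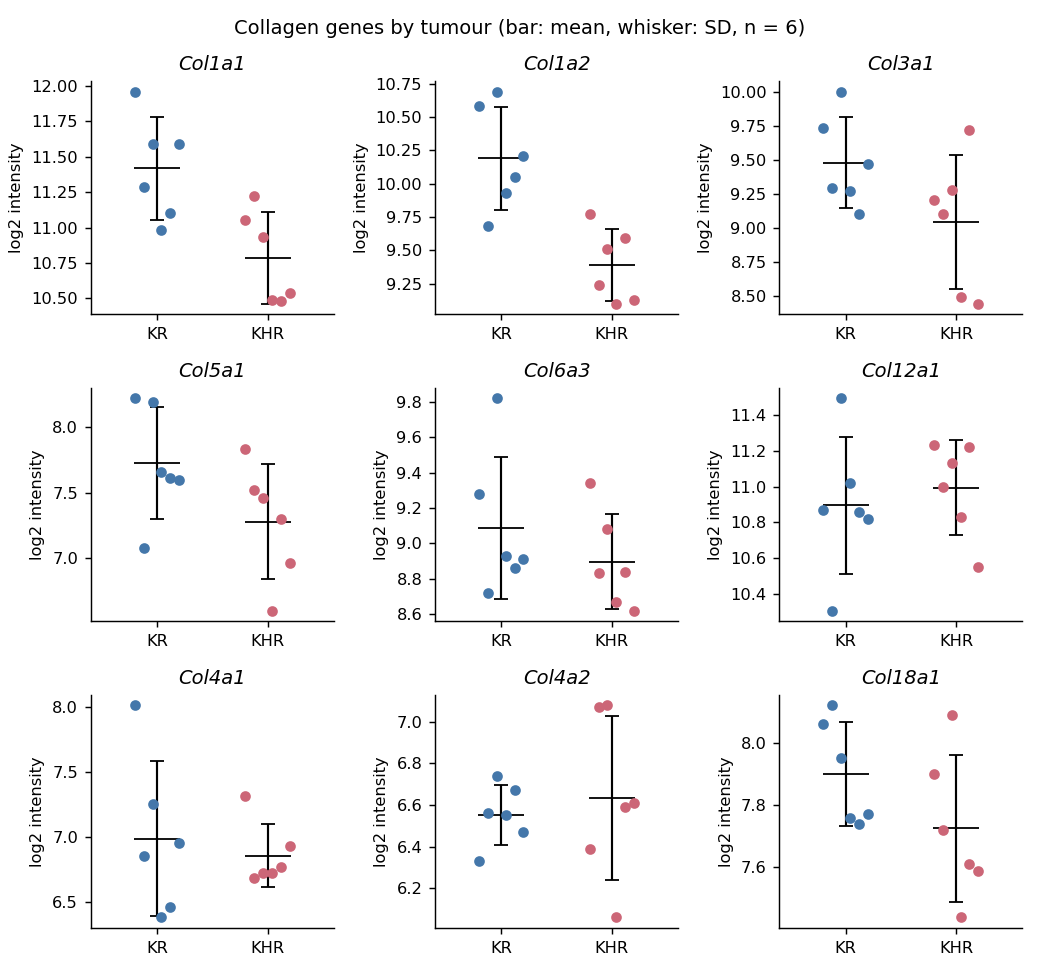
Log2 intensity (vertical axis) of 9 collagen genes in each tumour, KR in blue and KHR in red, drawn from tumour 1 to tumour 6 within a group; the bar is the mean and the whisker the SD, n = 6. The axes do not start at 0 and differ between panels. Col1a2 of KHR tumours lies between 9.10 and 9.77 and that of KR tumours between 9.68 and 10.69, while Col12a1, Col4a1 and Col4a2 overlap over most of their range.

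The array reads each gene with many probesets, which show whether a change runs along the transcript. All 35 probesets of Col1a2 were lower in KHR tumours, 18 of them at an unadjusted p under 0.05. Adjusted over 233753 probesets, 2 of these passed, at -1.25 ± 0.22 (limma, adjusted p = 0.0194) and -1.11 ± 0.23 (limma, adjusted p = 0.0367). The first read 10.24 to 11.19 in KR tumours and 9.10 to 10.09 in KHR tumours, with no overlap. Of the 26 probesets of Col1a1, 25 were lower and 13 had an unadjusted p under 0.05, and of the 23 of Col3a1, 22 were lower and 7 had one. By contrast 18 of 54 probesets of Col12a1 were lower. Probesets of 1 gene share tumours and RNA, so these counts are not independent. Of all probesets, 48.3% were lower by sign. The share of all probesets at an unadjusted p under 0.05 was not counted, so the counts at that threshold only describe these genes.

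The brightest probesets had smaller differences than those of middle brightness, in bands that were set after the values were seen. The 26 Col1a2 probesets between 6 and 12 had a median change of -0.67, and the 6 above 12 had -0.23. For Col1a1 the medians were -0.61 over 18 probesets between 6 and 12 and -0.24 over 7 above 12. The 19 Col3a1 probesets between 6 and 12 had -0.44, and the 2 above 12 had -0.27. Below 6 there was no such order, with a median of -0.29 over 3 probesets of Col1a2, -0.66 over 2 of Col3a1 and 0.20 for 1 of Col1a1. The highest value in the table was 14.9, and whether bright probesets were near the upper limit of the scanner was not tested. Summarised by the mean over probesets, Col1a2 differed by -0.54 (limma, adjusted p = 0.0399), and with median polish by -0.54 (limma, adjusted p = 0.0507), which ended the call.

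**Figure D3:**
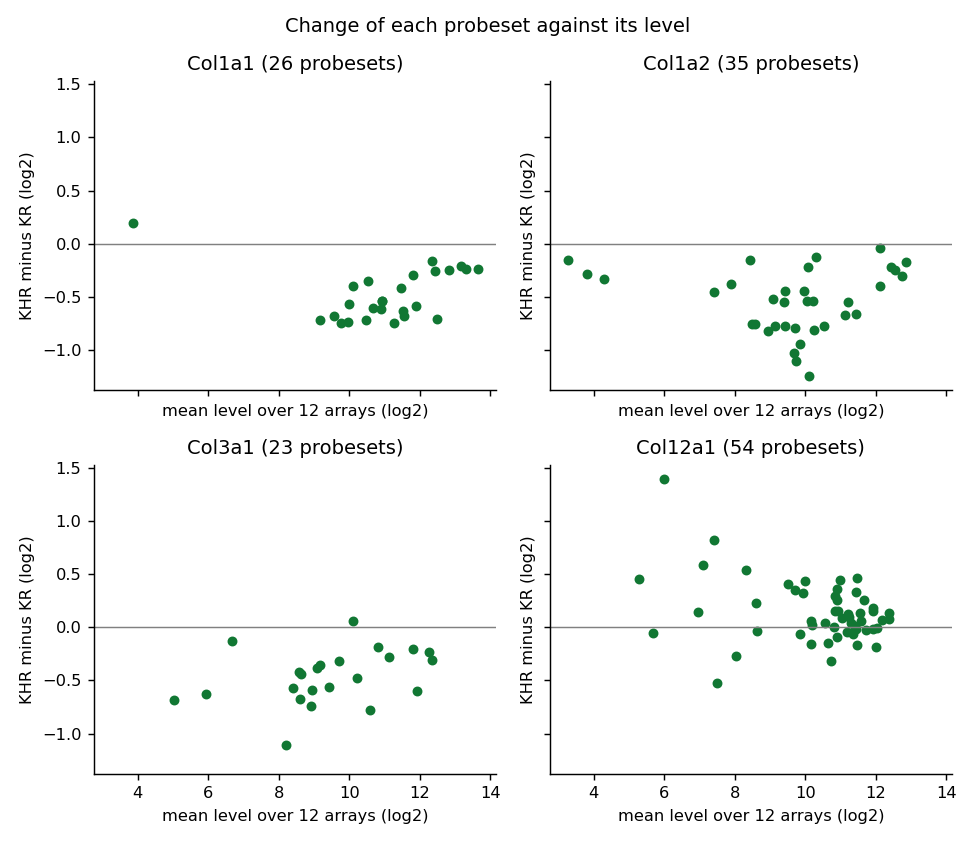
Change of each probeset, KHR minus KR in log2 intensity (vertical axis), against its mean level over the 12 arrays (horizontal axis, log2), for Col1a1, Col1a2, Col3a1 and Col12a1. Each point is 1 probeset. All 35 Col1a2 points and 25 of 26 Col1a1 points lie below 0, and most of those above a level of 12 lie nearer to it, while the 54 Col12a1 points lie on both sides.

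Over all collagen genes 674 of 1146 probesets were lower (58.8%, against 48.3% of all probesets), and 3 passed the test (0.262%, against 1.02%). All 3 were lower, beside 0.301% of all probesets called lower. The probeset outside Col1a2 belonged to Col4a3, a chain of specialised basement membranes. It read 5.16 to 7.13 in KR tumours and 3.33 to 4.68 in KHR tumours, a change of -1.73 ± 0.32 (limma, adjusted p = 0.0237). Of the 32 probesets of Col4a3 it was the only one with an unadjusted p under 0.05, and the gene's own value was 3.83 ± 0.16 over the KR tumours and 3.82 ± 0.08 over the KHR tumours (SD, n = 6).

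No basement membrane collagen was called, beside 3.74% of all genes. None of the 6 had an unadjusted p under 0.05, beside 6.21% of all genes lower and 9.64% higher. A list of 6 genes is too short to read a 0 against these shares. Col4a1 and Col4a2 code for the chains of the type IV collagen found in nearly all basement membranes. Col4a1 ran from 6.38 over 6.90 to 8.01 in KR tumours and from 6.68 over 6.75 to 7.31 in KHR tumours. KR 1 was the highest of all, KR 4 the lowest, and the KHR tumours lay inside the KR range. The difference was -0.13 ± 0.23, with a 95% interval of -0.63 to 0.37 (limma, adjusted p = 0.864). Col4a2 ran from 6.33 over 6.56 to 6.74 in KR tumours and from 6.06 over 6.60 to 7.08 in KHR tumours. KHR 2 and KHR 3 were the highest and KHR 4 the lowest of the 12, and the difference was 0.08 ± 0.16 (95% interval -0.26 to 0.42, limma, adjusted p = 0.879).

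The pair is transcribed in opposite directions from starts that RefSeq places 21 bases apart on chromosome 8 (GRCm38.p6, Col4a1 at 11312826 on the - strand, Col4a2 at 11312805 on the + strand). After subtraction of the group means their values over the 12 tumours had a Pearson r of -0.30. That value depended on the summary of probesets, with 0.43 for the mean over probesets, 0.57 for median polish and 0.08 over bright probesets. The same measure gave 0.57 for Col1a1 with Col1a2 (0.88 and 0.90 for mean and polish) and 0.61 for Col6a1 with Col6a2 (0.89 and 0.90). These pair values are descriptions without a test, and all rest on the same 12 tumours.

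The other chains of type IV collagen were dim. Col4a3, Col4a4, Col4a5 and Col4a6 had group means between 3.78 and 4.11, and their differences lay between -0.05 and 0.10. Col4a5 and Col4a6, which share a promoter region on the X chromosome with starts 1343 bases apart, were highest in KHR 5 within the KHR group (4.37 and 4.53) and in KR 2 within the KR group (4.56 and 4.25). Laminins and other partners of the basement membrane were likewise not called, 0 of 15 measured, beside 3.74% of all genes. Their median change was 0.08. The 2 with the smallest p were Lamb2, a laminin of vessels and muscle (-0.51 ± 0.18, limma, adjusted p = 0.174), and Lama2, the laminin chain of muscle (0.96 ± 0.36, limma, adjusted p = 0.186). Skeletal muscle markers were uneven beside these values, with a list mean of 5.42 to 6.94 in KR and 5.50 to 8.18 in KHR tumours, highest in KHR 5. Their part in the result was not tested.

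Among beaded filament collagens 5 of 6 were lower by sign (83.3%, against 49.0% of all genes), with a median change of -0.21. None was called, beside 3.74% of all genes, and 6 genes that share tumours are too few to read these counts as a class result. Col6a1 ran from 8.62 over 8.67 to 9.13 in KR tumours and from 8.27 over 8.46 to 8.97 in KHR tumours. Its groups overlapped through KHR 2, the second highest tumour (-0.24 ± 0.13, limma, adjusted p = 0.397). Col6a2 ran from 8.28 over 8.49 to 9.37 in KR tumours and from 7.96 over 8.23 to 8.45 in KHR tumours, with KR 3 far above the rest (-0.42 ± 0.16, limma, adjusted p = 0.217). With the blood endothelium marker mean as a covariate, Col6a2 passed (-0.49, limma, adjusted p = 0.0227). Col6a3, the largest chain of type VI, differed by -0.19 ± 0.18 and was highest in KR 3 (9.82).

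Col6a6, a chain that can take the place of Col6a3, was the only collagen gene whose groups did not overlap, 2.38% of 42 beside 0.84% of all genes with every KHR tumour below every KR tumour. It read 3.93 to 4.43 in KR tumours and 3.65 to 3.88 in KHR tumours, dim values in both groups, and did not pass (-0.29 ± 0.09, limma, adjusted p = 0.119). The remaining chains Col6a4 and Col6a5 stood between 3.59 and 3.92 in all tumours, with differences of 0.01 and 0.00.

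FACIT collagens did not move together. Col12a1, a fibril-associated chain of tissues under tension, was bright and ran from 10.31 over 10.86 to 11.49 in KR tumours and from 10.55 over 11.06 to 11.23 in KHR tumours. The KHR tumours lay inside the KR range, KR 2 was lowest and KR 3 highest, and the difference was 0.10 ± 0.17 (95% interval -0.27 to 0.47). Col14a1 had the widest spread of the 42 genes, from 4.46 to 6.51 in KR and from 3.94 to 6.49 in KHR tumours, with KR 3 and KHR 5 far above the others (-0.18 ± 0.40). Col16a1 and Col9a2 differed by -0.24 ± 0.22 and -0.27 ± 0.19. Col9a3, a cartilage chain, ran from 3.57 over 3.88 to 3.996 in KR and from 3.81 over 4.03 to 4.48 in KHR tumours (0.29 ± 0.12, limma, adjusted p = 0.265). It passed only with the mean over probesets (0.27, limma, adjusted p = 0.0135). Col9a1, Col19a1, Col20a1 and Col22a1 were dim, with differences between -0.10 and 0.01.

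The short-chain collagens held the highest difference among the 42. Col10a1, the collagen of growth plate cartilage, ran from 3.74 over 3.95 to 3.99 in KR tumours and from 3.87 over 4.17 to 5.30 in KHR tumours (0.48 ± 0.20, limma, adjusted p = 0.265). KHR 4 at 5.30 and KHR 6 at 4.76 stood above the rest, and the other 4 KHR tumours lay between 3.87 and 4.19. Col8a1, a collagen of vessels and fibroblasts, ran from 7.56 over 7.89 to 8.47 in KR and from 7.92 over 8.22 to 8.31 in KHR tumours (0.24 ± 0.15, limma, adjusted p = 0.48). All 5 of its probesets were higher in KHR tumours. Col8a2 differed by -0.01 ± 0.13.

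Multiplexins lie at the outer face of basement membranes. Col18a1, the source of endostatin, ran from 7.74 over 7.86 to 8.12 in KR tumours and from 7.44 over 7.67 to 8.09 in KHR tumours. KHR 4, KHR 5 and KHR 6 were the lowest 3, KHR 3 was the second highest, and the difference was -0.17 ± 0.12 (limma, adjusted p = 0.542). Col15a1 differed by 0.08 ± 0.16. Of the transmembrane collagens, Col23a1 differed by -0.24 ± 0.14 (limma, adjusted p = 0.456), Col13a1 by -0.14 ± 0.15 and Col25a1 by -0.01 ± 0.19. Col23a1 passed with the mean over probesets (-0.46, limma, adjusted p = 0.00609) and with median polish (-0.46, limma, adjusted p = 0.00548). Col26a1, a secreted chain with short collagen stretches, ran from 4.21 over 4.76 to 4.90 in KR and from 3.83 over 4.31 to 4.55 in KHR tumours (-0.42 ± 0.14, limma, adjusted p = 0.14). Only KR 5 lay inside the KHR range, and Col28a1 differed by 0.06 ± 0.09.

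Differences between Col1a2 and other collagens inside 1 tumour were read as well, chosen after the values were seen and with no test. Since Col1a2 had the lowest change of the 42 genes, each such gap had to be lower in KHR tumours on average. Averages of the gaps are therefore left out. Col1a2 minus Col12a1 lay between -1.09 and -0.28 in KR tumours and between -1.76 and -1.42 in KHR tumours, with no overlap. Its gap to Col8a1 was 2.06 to 2.47 in KR and 0.96 to 1.45 in KHR tumours, and its gap to Col6a3 was 0.87 to 1.30 in KR and 0.40 to 0.76 in KHR tumours. Of 19 gaps of Col1a2, to 18 collagen genes and to the fibroblast marker mean, 4 did not overlap between the groups, those 3 and the gap to Col15a1. Of 19 gaps of Col1a1, 1 did not overlap, that to Col8a1. The low changes of Col1a2 and Col1a1 also favour gaps without overlap, and gaps between other genes were not counted. These counts are therefore a description and no support for a loss particular to these genes.

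The share of stroma was read from 16 fibroblast markers that hold no collagen gene. Their mean was 7.001 ± 0.36 over the KR tumours and 7.18 ± 0.36 over the KHR tumours (SD, n = 6), and the median change of the markers was 0.10. Fbln1, a matrix protein of fibroblasts, was the only marker called (6.25% of 16, against 3.74% of all genes). It rose by 0.92 ± 0.19 (limma, adjusted p = 0.0147), and every KHR tumour (7.75 to 8.67) lay above every KR tumour (6.57 to 7.65). Of the 16 markers 10 were higher and 6 lower by sign. The differences that did not pass ran from -0.32 for Dpt, a matrix protein of the dermis, to 0.64 for Dcn, a small proteoglycan, and Pdgfra, a receptor of fibroblasts, had 0.58. The call of Col1a2 held with the fibroblast marker mean as a covariate (-0.88, limma, adjusted p = 0.0149), a fit in which 0.792% of all genes were called lower. Col1a2 minus the fibroblast marker mean was 2.88 to 3.74 in KR tumours and 1.74 to 2.94 in KHR tumours, an overlap of 1 KHR tumour with the lowest KR tumour. Since Col1a2 was lower and the marker mean higher in KHR tumours, this gap had to be lower on average. The covariate could not shrink the difference either, because Col1a2 rose with the markers once group means were subtracted (r = 0.44). Both are descriptions and no test of the stroma share.

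Across the 12 tumours the collagens did not follow the fibroblast markers alike. Of 42 collagen genes, 0 passed in a permutation test adjusted over all genes, as did 0.0% of all genes. At an unadjusted p under 0.05, 4 had a positive relation (9.52%, against 5.35% of all genes) and 0 a negative one. The median r of the collagen genes was 0.08, beside -0.01 over all genes. It was -0.28, beside 0.02 over all genes, without KR 3 and KHR 5, the tumours farthest from the median of the marker mean (7.64 and 7.85).

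Col14a1 had the closest relation (Pearson r = 0.80, permutation p = 0.00267, adjusted p = 0.34; Spearman rho = 0.587, permutation p = 0.0489). Its r was 0.90 within KR tumours (exact permutation p = 0.025) and 0.86 within KHR tumours (exact permutation p = 0.0319). These p-values are unadjusted, and the gene was picked as the closest on the same tumours, so they are no separate check. Each group holds 1 of the outlying tumours KR 3 and KHR 5. Without KR 3 and KHR 5 its r was 0.36, so the relation over all tumours rests on these. The values within a group were not computed without them. Col12a1 had r = 0.67 (permutation p = 0.0185, adjusted p = 0.51) and rho = 0.385 (permutation p = 0.219), with r = 0.43 without the same tumours. Col1a2 had r = 0.05 (permutation p = 0.873, adjusted p = 0.967) and rho = -0.15 (permutation p = 0.652), with r = -0.40 without those tumours. With the group means subtracted its r was 0.44. Col1a1 had r = -0.28 (permutation p = 0.374, adjusted p = 0.796), rho = -0.34 (permutation p = 0.288), and r = -0.39 without those tumours.

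**Figure D4:**
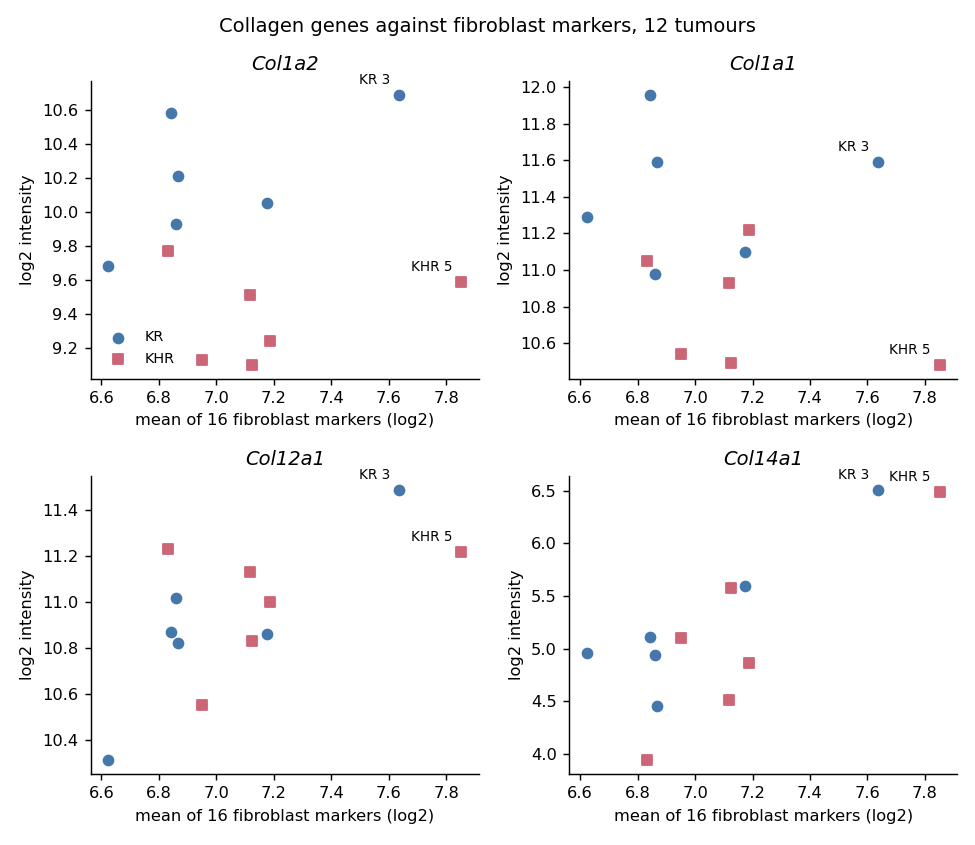
Log2 intensity of Col1a2, Col1a1, Col12a1 and Col14a1 (vertical axes, which do not start at 0) against the mean of 16 fibroblast markers (horizontal axis, log2) in 12 tumours, KR as blue circles and KHR as red squares. KR 3 and KHR 5 are labelled. Col14a1 is at 6.51 and 6.49 in these tumours and at 5.60 or less in the others, while Col1a2 of KHR 5, the tumour richest in fibroblast markers, is 9.59.

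Blood endothelium markers gave another order of the collagens. Their list mean was 6.75 ± 0.27 over the KR tumours and 6.81 ± 0.10 over the KHR tumours (SD, n = 6), with 0 of 11 markers called. Col12a1 had r = 0.77 with it (permutation p = 0.00383, adjusted p = 0.949) and rho = 0.706 (permutation p = 0.0125), with r = 0.72 without KR 3 and KR 5, the tumours farthest from its median. Col6a3 had r = 0.80 (permutation p = 0.00474, adjusted p = 0.949), rho = 0.524 (permutation p = 0.082), and r = 0.52 without those tumours. Col6a2 had r = 0.59 (permutation p = 0.0633), rho = 0.161 (permutation p = 0.618), and r = -0.19 without those tumours. Of 42 collagen genes 0 passed and 4 had an unadjusted p under 0.05 in the positive direction (9.52%, against 2.94% of all genes). Col4a1, a main product of endothelial cells, had r = 0.35 (permutation p = 0.249, adjusted p = 1.00; rho = 0.315, permutation p = 0.319). The call of Col1a2 held with the blood endothelium marker mean as a covariate (-0.87, limma, adjusted p = 0.00516), a fit with 0.913% of all genes called lower. It was lost with the skeletal muscle marker mean (-0.71, limma, adjusted p = 0.0609) and with the squamous epithelium marker mean (-0.81, limma, adjusted p = 0.0824).

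**Figure D5:**
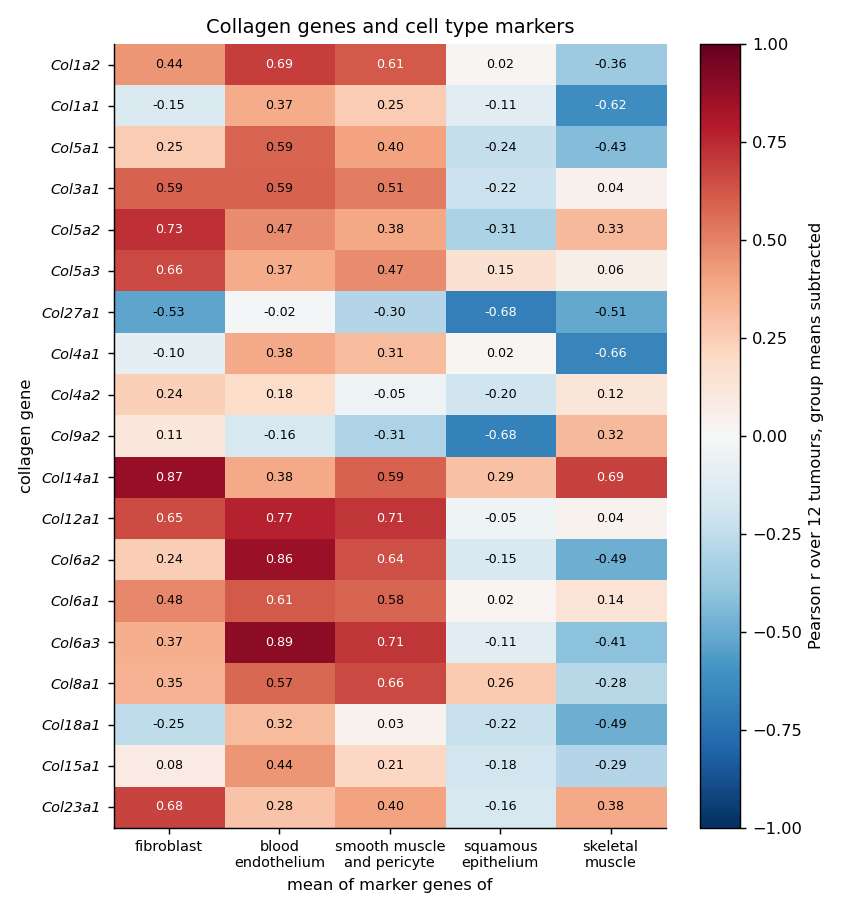
Pearson r over 12 tumours, group means subtracted, between the 19 collagen genes above the median level (vertical axis) and the mean of the marker genes of 5 cell types (horizontal axis); the colour scale runs from -1 to 1. It is a description with no test. Col14a1 has its highest value with fibroblast markers (0.87), Col6a3 and Col6a2 with blood endothelium markers (0.89 and 0.86), and Col1a1 and Col4a1 have -0.62 and -0.66 with skeletal muscle markers.

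The genes outside the collagens that were most like the mean of Col1a1, Col1a2 and Col3a1 over 12 tumours, group means subtracted, were Atp8b2 (r = 0.92), Pdgfrl (0.90), Mmp23 (0.89), Antxr1 (0.89) and Thbs2 (0.88). Those most like the mean of Col4a1 and Col4a2 were Osbpl7 (0.94), Akr7a5 (0.93), Lama5 (0.92), Tbx2 (0.92) and Aldh4a1 (0.91). Of these 10 genes, 0 were called between the groups, and since all other genes were ranked such values describe likeness only. Among 14 bright collagen genes compared in pairs, Col1a2 was most like Col6a3 (r = 0.89) and Col5a1 (r = 0.87) with the median over probesets. The value for Col1a1 with Col1a2 given above changed with that summary, so no order between them is read here.

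Genes that build, bind and break collagen were read from 7 lists with 100 measured genes. Of these, 4 were called, all higher in KHR tumours (4.0%, against 2.71% of all genes called higher), and the median change was 0.09. Over all genes 3.74% were called in either direction, and 7.07% of genes above the median level. Counts of 0 or 1 in a single list are therefore not read as results about it. The 7 collagen-degrading enzymes held 2 of the 4 calls (28.6%, against 3.74% of all genes), a list too short to read that share as a result. Mmp1a, Mmp2, Mmp8, Mmp14 and Ctsk were not called, with differences between -0.14 and 0.14. Mmp13, a collagenase that cuts fibrillar collagen, ran from 9.01 over 9.52 to 9.74 in KR and from 10.06 over 10.27 to 10.71 in KHR tumours. All KHR tumours lay above all KR tumours, as for 1.83% of all genes, and Mmp13 rose by 0.83 ± 0.14 (limma, adjusted p = 0.00424). It passed in each of the 12 fits that left out 1 tumour. Mmp9, which cuts denatured and type IV collagen, rose by 1.04 ± 0.25 (limma, adjusted p = 0.0317), from a range of 6.55 to 7.95 to one of 7.43 to 8.78. It passed in 4 of the 12 fits that left out 1 tumour (without KR 4, KHR 1, KHR 3 or KHR 5), with adjusted p up to 0.0778.

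Loxl3, a lysyl oxidase that cross-links collagen, rose by 0.79 ± 0.20 (limma, adjusted p = 0.0491), from 4.92 to 6.05 in KR to 5.55 to 6.49 in KHR tumours. It passed in 2 of the 12 fits that left out 1 tumour (without KR 3 or KHR 5), with adjusted p up to 0.11. Of the 13 genes of procollagen processing and cross-linking it was the only one called (7.69%, against 3.74% of all genes). Itga2, a chain of a collagen receptor of epithelial cells and platelets, rose by 0.56 ± 0.14 (limma, adjusted p = 0.0438). KR tumours read 7.47 to 8.21 and KHR tumours 8.15 to 8.70, and Itga2 passed in 4 of the 12 fits (without KR 4, KR 5, KHR 2 or KHR 5), with adjusted p up to 0.103. Of 10 collagen receptors it was the only one called. After quantile normalization Itga2 (0.51, limma, adjusted p = 0.0744) and Mmp9 (0.99, limma, adjusted p = 0.0522) did not pass. Mmp9 also failed with the mean over probesets (0.65, limma, adjusted p = 0.0763), with median polish (0.71, limma, adjusted p = 0.0631), and with the Xist or squamous covariate. Itga2 also failed with array medians subtracted (0.53, limma, adjusted p = 0.0687), with the replicate block (0.56, limma, adjusted p = 0.0646) and with each of the 5 covariates (limma, adjusted p between 0.0596 and 0.166). It passed with the mean over probesets (0.65, limma, adjusted p = 0.0128) and with median polish (0.57, limma, adjusted p = 0.03355). Loxl3 failed with the Xist, fibroblast, squamous and skeletal muscle covariates (limma, adjusted p between 0.08995 and 0.218). Mmp13 passed under each of these settings.

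None of the 25 measured enzymes and chaperones that fold and modify collagen chains was called, with a median change of 0.02. Creb3l1, a factor that drives the secretion of type I collagen, had the smallest p of that list (-0.56 ± 0.18, limma, adjusted p = 0.107). It ran from 6.99 to 7.63 in KR and from 6.04 to 7.22 in KHR tumours. Tmem38b, an ion channel needed for collagen modification in bone, differed by -0.46 ± 0.18 (limma, adjusted p = 0.207). Serpinh1, the collagen chaperone, and P4ha1, a prolyl hydroxylase, differed by -0.08 ± 0.14 and -0.03 ± 0.13.

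Proteoglycans and glycoproteins that bind fibrils gave 0 calls among 16 genes, with a median change of 0.01. Bgn, a small proteoglycan, differed by 0.36 ± 0.15 (limma, adjusted p = 0.248) and Tnc, tenascin C, by -0.34 ± 0.17 (limma, adjusted p = 0.343). The TGF-beta list, with ligands and receptors of the main inducer of fibrillar collagen and some targets, gave 0 calls among 14 genes. Its median change was 0.22, with 11 genes higher and 3 lower by sign. All 14 were above the median level, where genes had a median change of 0.05 and 42.2% were lower. The 3 lower genes were the receptors Tgfbr2 (-0.31 ± 0.12) and Tgfbr3 (-0.35 ± 0.23), and Ltbp1 (-0.07 ± 0.14). Tgfb3 ran from 6.63 over 7.15 to 8.01 in KR and from 7.54 over 7.996 to 8.17 in KHR tumours (0.70 ± 0.20, limma, adjusted p = 0.0698). Ltbp2 differed by 0.61 ± 0.22 (limma, adjusted p = 0.168).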

How the data were processed

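RNA of 12 tumours, 6 KR and 6 KHR by their source label, was hybridised to 1 array each, and the deposited table held log2 values for 269751 probesets. The authors used Partek, per the submitters' processing notes, without a version. Background correction, normalization and genome build: not given in the sources used here. The base of 2 was inferred from values of 2.66 to 14.9.

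Probesets with 1 symbol in the platform annotation (233753; 5106 had several and 30892 none) were used, and 2247 of 23152 symbols were updated through RefSeq synonyms of GRCm38.p6, 20875 were current and 30 were kept. Col26a1 was listed under its older name Emid2. Genes were tested with limma 3.58.1 (lmFit, eBayes) in R 4.3.3 over all 12 arrays, two-sided, without covariate or filter, adjusted over 23102 genes. Relations to marker means were tested with 100000 permutations, or all orders of 6 tumours within a group, and adjusted over all genes, not over the collagen genes as first planned, since the list was chosen with results known. The limma code was tested on simulated data. The number of arrays limits the precision.

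The collagen genes, the lists and the tests were chosen with earlier results of these data known. Described in full were the called collagen genes, the 8 with the smallest p, and Col1a1, Col1a2, Col3a1, Col4a1, Col4a2, Col6a1 and Col18a1; other collagen genes are given by level or difference. Of each pathway list the called genes are named, or else the 2 with the smallest p. Serpinh1, P4ha1, Acan, Pdgfra, Dcn, Dpt, Tgfbr2, Tgfbr3, Ltbp1, Mmp1a, Mmp2, Mmp8, Mmp14 and Ctsk were named after their values were seen. Some genes of the lists are not analysed here. Promoter windows were credited to RefSeq. Alternatives changed the probeset summary, scaling, filters, symbols, variance model, array weights, covariates, replicate block, test, threshold or left out 1 array. Tables and figures were made in Python 3.11.15 (numpy 2.4.6, pandas 2.3.3, matplotlib 3.10.9).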

Additional observations from a re-analysis of the deposited data

Results flagged for a closer look

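In a group of 6 tumours a value was marked where the gap to its nearest neighbour exceeded Dixon's 95% critical share of the group's range, which chance does in about 1 in 20 groups. Of 106 groups looked at, 4 held such a value. Col11a2 in KHR 6 was 4.23, against 3.88 for the next tumour and 3.67 for the lowest. Col20a1 in KHR 2 was 3.70, against 4.15 for the next and 4.40 for the highest. Both genes are below the median level of all genes. The fibroblast marker mean of KHR 5 was 7.85, against 7.19 for the next tumour and 6.83 for the lowest, and the blood endothelium marker mean of KR 3 was 7.27, against 6.81 and 6.56. These marker means stand beside the relations of Col14a1 and Col12a1, which are given in the results with and without KR 3, KHR 5 and KR 5.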

How the results depend on the processing

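Of 1236 values of collagen genes under 30 other settings, 1217 kept their side of the threshold, 8 lost the call (all Col1a2), 11 gained one and 0 turned the direction of a called value. The number of collagen genes called lower, 1 in the main fit, was 0 with Xist, squamous or skeletal muscle markers as a covariate, with the exact rank test (Col1a2 adjusted p = 0.108) and at a threshold of 0.01. It was 2 with the mean over probesets (Col1a2 and Col23a1), with the blood endothelium covariate (Col1a2 and Col6a2), and with bright genes only or eBayes with trend and robust (Col1a1 and Col1a2). It was 3 with bright probesets only (Col1a1, Col1a2 and Col2a1), and 0 to 2 when 1 tumour was left out. The number called higher was 1 with the mean over probesets (Col9a3) and 0 to 0 when 1 tumour was left out. The median change of the collagen genes stayed below 0, at -0.09 to -0.03 with 1 tumour left out.

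Over all genes 863 were called, 1445 with the mean over probesets, 555 with Xist and 358 with squamous markers as a covariate, 0 by the rank test, 312 at a threshold of 0.01, and 523 to 1085 with 1 tumour left out. Of the pathway genes 4 were called, 8 with the mean over probesets, 9 with median polish, 7 with the blood endothelium covariate, 2 with quantile normalization and with the Xist, fibroblast or muscle covariate, 1 with the squamous covariate or at 0.01, 0 by the rank test, and 1 to 4 with 1 tumour left out. At 0.01 the called collagen probesets went from 3 to 0. The relation to the fibroblast markers gave 0 collagen genes under every setting tried. The cause of these shifts was not tested.

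With the replicate number as a block, 2 collagen genes were called lower (Col1a1 and Col1a2), and 925 genes in all. There Fbln1 (0.92, limma, adjusted p = 0.0508) and Itga2 (0.56, limma, adjusted p = 0.0646) did not pass, and Lama2 passed. Fbln1 also failed with the squamous covariate (0.83, limma, adjusted p = 0.0824). Same-numbered tumours deviated together with correlations of 0.23, 0.04, -0.00, 0.17, 0.05 and 0.01, and 3 of 12 tumours correlated best with their own number, so the numbers do not pair the tumours.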
